A study of Mus musculus with 81 samples.

Results

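The antiviral effectors of the interferon response were followed through every RNA-seq library of a mouse study of histone H3.3 in myeloid cells. The genes were taken by symbol as Mx1, Mx2, Rsad2, Cmpk2, Ifi44, Bst2, Ifi27l2a, Ifi35, Rtp4 and Xaf1. They are 10 of the 55517 gene identifiers that were listed in all libraries of an experiment. All 10 were listed in each of the 81 libraries, and all passed the filter on low counts in each of the 5 experiments. Values are CPM, the counts of a gene scaled to a common total of counts on genes. The total of each library was first adjusted by TMM, a scaling between the libraries of an experiment.

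WT mice carried floxed H3f3a and H3f3b, the genes that encode H3.3, and no Cre. The cKO (H3.3cKO) mice carried the same floxed genes with LysM-Cre in both copies of Lyz2, a promoter that is active in macrophages and granulocytes. This places Cre in Lyz2, so the cKO cells also lack intact Lyz2, and no group had LysM-Cre without floxed H3.3 genes. Bone marrow of C57BL/6 background, from mice of 8 to 10 weeks, was grown into bone marrow-derived macrophages (BMDMs) in medium conditioned by L929 cells. The time course held WT and cKO cells on days 3 (BMDM progenitors), 5 and 7. BMDMs of day 8 were untreated or given interferon-γ (IFNg) for 12 hours. Peritoneal macrophages came directly from WT and cKO mice. In the antibody experiment WT and cKO bone marrow cells were grown with no antibody, with an IgG1 κ isotype control, or with a monoclonal antibody against IFNAR1, a chain of the type I interferon receptor, added from the first day and renewed until lysis. The last experiment held 3 sets of WT and cKO BMDMs and 3 double KOs, H3.3cKO:StingKO, H3.3cKO:MavsKO and H3.3cKO:Irf7KO, in which the cKO alleles were joined to a germline deletion, and it held no Sting, Mavs or Irf7 KO with intact H3.3. Each of these groups had 3 biological replicates, except cKO on day 8 with 2 per treatment, which makes 79 libraries in 27 groups. Another 2 cKO libraries of day 8 carry labels that contradict each other and entered no comparison.

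Type I interferons bind IFNAR1 and IFNAR2, and their signal reaches interferon-stimulated response elements through a complex that holds STAT2 and IRF9. IFNg acts largely at GAS elements, and IRF7 raises type I interferon and some of its targets. The effectors act at different steps of infection. Mx1 and Mx2 are dynamin-like GTPases that block viral nucleoproteins, although C57BL/6 mice carry Mx alleles with coding defects, so transcripts here do not stand for working protein. Rsad2 (viperin) turns CTP into a chain-terminating nucleotide, and Cmpk2, its neighbour, is a mitochondrial nucleotide kinase. Bst2 (tetherin) holds budding virions at the cell surface, Rtp4 is a chaperone of receptor transport induced by interferon, and Ifi27l2a is a small protein of the ISG12 family. Xaf1 binds the apoptosis inhibitor XIAP, Ifi35 is a leucine zipper protein that binds Nmi, and Ifi44 is an interferon-induced protein.

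The members lie on 5 chromosomes in the GENCODE annotation of the GRCm38 build. Mx1 (chr16:97447035-97462907, minus strand) and Mx2 (chr16:97535308-97560900, plus strand, annotated as a polymorphic pseudogene) start 72401 bases apart. Rsad2 (chr12:26442746-26456452, minus strand) and Cmpk2 (chr12:26469204-26479837, plus strand) point away from each other with 12752 bases between their starts. The other genes have no other member close by: Ifi44 (chr3:151730922-151749960, minus strand), Bst2 (chr8:71534255-71537456, minus strand), Ifi27l2a (chr12:103442167-103443680, minus strand), Ifi35 (chr11:101448407-101458698, plus strand), Rtp4 (chr16:23520291-23614222, plus strand) and Xaf1 (chr11:72301629-72313733, plus strand). The counts carry no strand, and Ifi35 shares 290 exonic bases with the antisense gene Gm11626. Rtp4 shares 296 exonic bases with Gm45338 on its own strand. Reads of these shared bases are not assigned to a single gene and so may be missing from the counts of Ifi35 and Rtp4. Reads that fit Mx1 and Mx2, or Ifi27l2a and its close relatives, equally well may be missing from the counts too.

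Promoter windows of 300 bases, 250 before and 50 after the start site, were at hand for 6 of the 10 members in RefSeq (GRCm38.p6), namely Ifi44, Bst2, Xaf1, Ifi35, Rsad2 and Cmpk2. A core of the interferon-stimulated response element, GAAA followed after any 2 bases by GAAA, on either strand, was found in 2 of these 6, Bst2 and Rsad2, and in 3.44% of the 32851 windows of all genes. The GAS core TTCNNNGAA was also found in 2 of the 6, Bst2 and Ifi35, and in 8.3% of all windows. The stretches around the element core are shown in the direction of the gene for both members that hold it, whose transcripts differed between genotypes by 4.69-fold (Bst2) and 78.2-fold (Rsad2) on day 3. Ifi44, with the largest difference of the 10 members on that day, had no such core in its window. A link between core and difference was not tested. Capitals mark this core, which lies on the gene's strand and occurs at 2 overlapping places in Bst2 and lies on the opposite strand in Rsad2.
Bst2, chr8:71537547-71537642, minus strand: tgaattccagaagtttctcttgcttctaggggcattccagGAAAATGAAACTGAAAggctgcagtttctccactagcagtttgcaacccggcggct
Rsad2, chr12:26456523-26456612, minus strand: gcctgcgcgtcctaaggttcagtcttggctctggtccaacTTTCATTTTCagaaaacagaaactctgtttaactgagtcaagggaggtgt
A match is a description of letters, and binding was not measured here.

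Libraries held 3614967 to 45581528 counts on genes, with a median of 18333377. H3f3a was lower in every cKO or double KO library outside the antibody experiment (1.05 to 15.3 CPM) than in every WT library (34.7 to 83.6 CPM), whereas H3f3b overlapped there (72.5 to 364.9 against 175.8 to 524.8 CPM). In the antibody experiment both were lower in every cKO library than in every WT library, H3f3a at 4.10 to 11.05 against 34.4 to 91.7 CPM and H3f3b at 16.5 to 65.2 against 291 to 477 CPM. Macrophage marker sums were alike in range, 3211 to 5107 CPM in WT and 3306 to 4251 CPM in cKO on day 3. The cells of day 3 also held neutrophil transcripts (1616 to 3042 CPM in WT and 2740 to 4221 CPM in cKO, over 9 markers), and in these bulk samples fewer cells of a type and less RNA per cell cannot be told apart.

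On day 3 every antiviral effector was higher in cKO than in WT progenitors. The difference ran from 4.39-fold for Ifi35 to 454-fold for Ifi44, which WT cells hardly transcribed. All 10 passed the test, against 6% of the 15955 genes tested that were called higher, and in all 10 every cKO library lay above every WT library, which held for 17.6% of genes. The median log2 fold change of the 10 was 5.15, and that of all genes was 0.036.

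Among the nuclear and cytoplasmic GTPases, Mx1 had 0.972, 1.06 and 1.46 CPM in WT and 56.1, 69.2 and 103 CPM in cKO (65.1-fold, log2 fold change 6.02 ± 0.80 (SE), adjusted p = 0.000272). Mx2 had 0.347, 0.472 and 0.673 CPM in WT and 16.9, 23.5 and 31.7 CPM in cKO (47.3-fold, log2 fold change 5.56 ± 0.73 (SE), adjusted p = 0.00025). Both were near the floor of detection in WT, with 5, 8 and 12 counts of Mx2. The neighbours Rsad2 and Cmpk2 were next. Rsad2 had 4.79, 1.83 and 1.57 CPM in WT and 193, 165 and 262 CPM in cKO (78.2-fold, log2 fold change 6.29 ± 1.01 (SE), adjusted p = 0.00103). Cmpk2 had 5.41, 4.13 and 4.37 CPM in WT and 109, 106 and 151 CPM in cKO (26.6-fold, log2 fold change 4.73 ± 0.84 (SE), adjusted p = 0.00211). WT replicate 1 held more Rsad2 than the other 2 WT libraries and still lay far below cKO.

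Ifi44 was counted 4, 3 and 2 times in the WT libraries and 1619, 814 and 1911 times in the cKO libraries of day 3, or 102, 55.5 and 99.9 CPM in cKO (454-fold, log2 fold change 8.82 ± 1.43 (SE), adjusted p = 0.00106). Its fold rests on so few WT counts that its size is imprecise. Rtp4 followed with 2.57, 1.18 and 0.336 CPM in WT and 122, 117 and 143 CPM in cKO (97.7-fold, log2 fold change 6.61 ± 0.89 (SE), adjusted p = 0.000291). Xaf1 stood at 2.43, 2.83 and 2.803 CPM in WT and 55.5, 44.98 and 68.8 CPM in cKO (21.1-fold, log2 fold change 4.40 ± 0.62 (SE), adjusted p = 0.000398). The 3 remaining genes had the smallest differences. Bst2 had 99.04, 49.2 and 46.3 CPM in WT and 385, 241 and 276 CPM in cKO (4.69-fold, log2 fold change 2.23 ± 0.58 (SE), adjusted p = 0.0246). Ifi35 had 14.5, 12.6 and 10.03 CPM in WT and 58.3, 50.6 and 52.5 CPM in cKO (4.39-fold, log2 fold change 2.13 ± 0.38 (SE), adjusted p = 0.00202). Ifi27l2a had 7.495, 2.77 and 2.13 CPM in WT and 90.5, 48.7 and 90.9 CPM in cKO (19.1-fold, log2 fold change 4.26 ± 0.76 (SE), adjusted p = 0.0022). Bst2 was the only one of the 10 to lose its call when a library was left out, without WT replicate 2 or 3 or cKO replicate 1 or 3 (adjusted p = 0.05 to 0.107).

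Listed genes of the wider pathway also differed on day 3. These lists, here and below, were chosen with earlier results of these data known, so their counts are a description. Over all genes 6% were called higher. All 40 other interferon-stimulated genes listed were higher in cKO (median log2 fold change 3.53), as were 13 of 20 IFNg targets tested and 7 of 15 receptor and signalling genes, of which 1 was lower. Stat2 (log2 fold change 2.83), Irf9 (1.75) and Irf7 (6.61) were called higher, and Ifnar1 was lower (-0.42, adjusted p = 0.0119). Ifnb1, the only ligand of 20 listed that passed the filter, had 0.837 to 2.76 CPM in cKO (13 to 44 counts) and at most 0.0694 CPM in WT. Monocyte marker sums also differed, at 97.0 to 230.0 CPM in WT and 471 to 694 CPM in cKO, with 2 of 4 monocyte markers called higher, as did those of B cells (34.01 to 43.5 and 64 to 108 CPM) and of mast cells and basophils (12.4 to 19.8 and 32.03 to 42.6 CPM), and their part in the effector difference was not tested.

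On day 5 the cKO cells again held more of every effector. The test called 9 of the 10 higher (2.46% of genes called higher), all 10 lay above every WT library (17% of genes), and Bst2 was not called (log2 fold change 1.86 ± 0.57, adjusted p = 0.107). Ifi44 had 1.83, 0.276 and 0.361 CPM in WT and 308, 24.6 and 32.4 CPM in cKO (149-fold, log2 fold change 7.22 ± 1.19 (SE), adjusted p = 0.00466). Mx1 had 8.38, 2.93 and 2.22 CPM in WT and 192, 35.5 and 41.5 CPM in cKO (19.8-fold, log2 fold change 4.30 ± 0.69 (SE), adjusted p = 0.00394). Rsad2 had 22.6, 5.63 and 5.004 CPM in WT and 436, 54.9 and 60.6 CPM in cKO (16.4-fold, log2 fold change 4.04 ± 0.87 (SE), adjusted p = 0.0184). Replicate 1 was the highest library of its genotype for all 10 members. The other called members rose 3.10-fold (Ifi35) to 12.1-fold (Cmpk2). The count of calls depended on single libraries, with 2 calls without WT replicate 2 or without WT replicate 3 and 3 calls without cKO replicate 1, and it was 0 when only the day 5 libraries were fitted. Monocyte marker sums were 109 to 149.8 CPM in WT and 240.1 to 639 CPM in cKO, stromal sums 14.9 to 48.5 and 77.2 to 110 CPM, and mast cell and basophil sums 3.09 to 3.303 and 7.102 to 15.1 CPM, and their part was not tested.

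On day 7 WT and cKO cells overlapped for most effectors. The test called 0 of the 10 members (1.82% of genes called), with 1 at an unadjusted p under 0.05, and DESeq2 also called 0. Only Mx2 and Ifi44 lay above every WT library in all cKO libraries (9.62% of genes). Mx1 had 85.3, 29.3 and 23.3 CPM in WT and 84.8, 83.7 and 89.5 CPM in cKO (log2 fold change 0.90 ± 0.58, adjusted p = 0.465). Ifi44 had 34.4, 3.81 and 3.51 CPM in WT and 148, 77.8 and 94.9 CPM in cKO (log2 fold change 2.92 ± 0.89, adjusted p = 0.105). Mx2 had 20.6, 12.2 and 8.96 CPM in WT and 23.9, 25.2 and 24.3 CPM in cKO (log2 fold change 0.80 ± 0.50, adjusted p = 0.445). WT replicate 1 was the highest WT library for all 10 members and lay above every cKO library for Cmpk2, Bst2 and Rsad2 (270.1, 60.4 and 48.3 CPM of Rsad2 in WT, 191, 129 and 154 CPM in cKO). Without it Ifi44 (log2 fold change 4.84, adjusted p = 0.0171) and Ifi35 (1.26, adjusted p = 0.0326) were called. With same-numbered libraries as pairs Ifi44 was called as well (3.66, adjusted p = 0.0027). Stromal marker sums were 5.24 to 44.4 CPM in WT and 94.7 to 149 CPM in cKO on day 7, B cell sums 58.1 to 188 and 14.5 to 55.95 CPM, and their part was not tested.

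**Figure D1:**
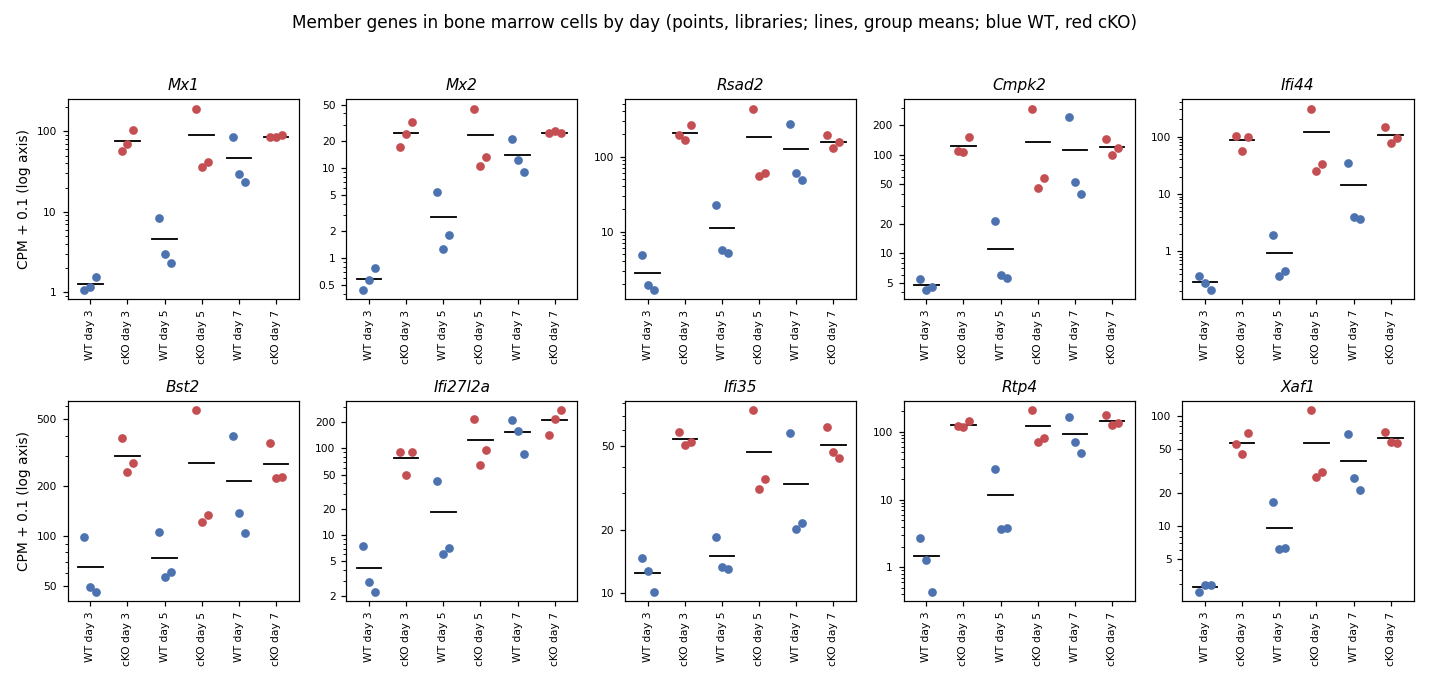
CPM plus 0.1 on a log axis of each member gene in the time course, with a point for each library, a line for each group mean, WT in blue and cKO in red. On day 3 all cKO points lie above all WT points in every panel, and on day 7 they overlap in every panel except those of Mx2 and Ifi44.

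Within WT cells all 10 effectors rose from day 3 to day 7 (12.6% of genes called higher), and all 10 lay above every day 3 library (16.8% of genes). Rtp4 rose 72.8-fold (log2 fold change 6.19 ± 0.88, adjusted p = 0.000276), Ifi44 74.3-fold (log2 fold change 6.21 ± 1.49, adjusted p = 0.00798) and Rsad2 47.8-fold (log2 fold change 5.58 ± 0.98, adjusted p = 0.00129). Mx1 rose 39.5-fold, Ifi27l2a 38.4-fold, Mx2 27.6-fold, Cmpk2 24.4-fold and Xaf1 14.5-fold, while Bst2 (3.35-fold) and Ifi35 (2.71-fold) rose least. Of the 40 other interferon-stimulated genes, 39 rose too. Over the same days the neutrophil marker sum of WT cells went from 1616 to 3042 to 73.6 to 132 CPM, that of mast cells and basophils from 12.4 to 19.8 to 0.6804 to 3.72 CPM and that of dendritic cells from 54.04 to 70.8 to 124 to 243 CPM, and their part was not tested. Without WT day 7 replicate 1 Bst2 (adjusted p = 0.188) and Ifi35 (0.0562) were no longer called, and without WT day 3 replicate 2 or 3 Bst2 was not either (0.115 and 0.12), nor was Ifi35 without WT day 3 replicate 3 (0.0543). In cKO cells 0 members were called over the same days (14.7% of genes called), 1 had an unadjusted p under 0.05, and DESeq2 called 0. That member was Ifi27l2a, with 90.5, 48.7 and 90.9 CPM on day 3 and 143, 219.6 and 275 CPM on day 7 (log2 fold change 1.47 ± 0.64, adjusted p = 0.136), and with paired libraries its adjusted p was 0.0417. The other 9 had log2 fold changes of -0.39 (Rsad2) to 0.31 (Ifi44).

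The difference between the genotype effects of day 7 and day 3 was itself tested. All 10 members had a smaller cKO effect on day 7, by -1.53 (Ifi35) to -6.00 (Rtp4) on the log2 scale, with a median of -4.70 against -0.035 over all genes. The test called 0 of them (0.0439% of genes called), although all 10 had an unadjusted p under 0.05, the lowest adjusted p was 0.0604, and DESeq2 called 8. With the replicate number as a block 9 were called, all but Ifi35 (adjusted p = 0.00511 to 0.0485). This block is not taken as pairing, because same-numbered WT libraries of days 3 and 7 did not all deviate together (lowest correlation 0.0928). Without WT day 7 replicate 3 the count was 6, and without WT day 7 replicate 1 it was 3.

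In day 8 BMDMs without treatment the cKO cells had more of each effector, most of all Ifi44. The test called 5 members higher (0.558% of the 13075 genes tested), and all 10 lay above every WT library (20.5% of genes). Both Mx genes were among the 5. Mx1 had 19.4, 16.1 and 13.2 CPM in WT and 73.03 and 63.7 CPM in the 2 cKO libraries (4.16-fold, log2 fold change 2.06 ± 0.23 (SE), adjusted p = 0.00353). Mx2 had 6.45, 6.36 and 8.05 CPM in WT and 24.01 and 18.4 CPM in cKO (3-fold, log2 fold change 1.58 ± 0.25 (SE), adjusted p = 0.0217). Ifi44 had 5.12, 7.004 and 3.096 CPM in WT and 55.2 and 57.4 CPM in cKO (10.9-fold, log2 fold change 3.45 ± 0.40 (SE), adjusted p = 0.00453). The nucleotide enzymes were close to each other in size of effect. Rsad2 had 84.7, 55.9 and 51.2 CPM in WT and 212 and 183 CPM in cKO (3.04-fold, log2 fold change 1.60 ± 0.28 (SE), adjusted p = 0.0356). Cmpk2 had 59.8, 54.7 and 42.4 CPM in WT and 147 and 146 CPM in cKO, and missed the threshold (log2 fold change 1.46 ± 0.28, adjusted p = 0.0589). Ifi35 was called at 1.79-fold (log2 fold change 0.84 ± 0.15, adjusted p = 0.0437), and Xaf1, Rtp4, Ifi27l2a and Bst2 had log2 fold changes of 1.23, 1.15, 0.73 and 0.60 that were not called. Leaving out any one of the WT or cKO libraries left 2 or 3 calls, 3 of them without WT untreated replicate 1 and 2 without any other. Monocyte marker sums were 14.1 to 19.9 CPM in WT and 13.1 to 17.04 CPM in cKO, neutrophil sums at most 1.31 CPM in either, and B cell sums 7.79 to 13.98 CPM in WT and 1.58 to 2.52 CPM in cKO, whose part was not tested.

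IFNg raised the effectors strongly in both genotypes. In WT all 10 were higher after treatment (19.5% of genes called higher, and all 10 above every untreated library, as were 30.9% of genes). Ifi44 (41.8-fold, log2 fold change 5.38 ± 0.42, adjusted p = 9.07e-06) and Mx1 (36.7-fold, log2 fold change 5.20 ± 0.25, adjusted p = 5.79e-07) rose most, with 208, 248 and 173 CPM of Ifi44 and 558, 733 and 472 CPM of Mx1 in the treated WT libraries. Rsad2 rose 15.7-fold and Cmpk2 14.5-fold. The other members rose by 3.25-fold (Ifi27l2a) to 7.40-fold (Mx2). In cKO the test called 9 higher (17.5% of genes called higher, and 9 above every untreated library, as were 23.1% of genes). Cmpk2 rose 27.9-fold (log2 fold change 4.80 ± 0.37, adjusted p = 1.77e-05), Mx1 22.6-fold, Rsad2 19.4-fold and Ifi44 9.58-fold. Rtp4 was not called (log2 fold change 0.79 ± 0.39, adjusted p = 0.142), and its 2 treated cKO libraries lay at 86.6 and 312 CPM on either side of the untreated ones (119 and 126 CPM). Without cKO IFNg replicate 1 Rtp4 was called as well, and Ifi27l2a lost its call without cKO IFNg replicate 2 or cKO untreated replicate 1. All 40 other interferon-stimulated genes and all 21 IFNg targets rose in each genotype.

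Under IFNg 6 members were higher in cKO than in WT (3.57% of genes called higher), and 7 lay above every WT library (13.1% of genes). The adjacent pair had the largest differences. Cmpk2 had 831, 864 and 559.7 CPM in WT and 4474 and 2807 CPM in cKO (5.3-fold, log2 fold change 2.41 ± 0.28 (SE), adjusted p = 0.00306). Rsad2 had 1145, 1160 and 668 CPM in WT and 3270 and 3707 CPM in cKO (3.77-fold, log2 fold change 1.92 ± 0.28 (SE), adjusted p = 0.00752). The GTPases were higher too. Mx1 had 1428 and 1370 CPM in cKO (2.56-fold, log2 fold change 1.36 ± 0.23 (SE), adjusted p = 0.0123), and Mx2 had 51.1, 64.9 and 37.2 CPM in WT and 159.5 and 139 CPM in cKO (3.15-fold, log2 fold change 1.66 ± 0.25 (SE), adjusted p = 0.00793). Bst2 (3.02-fold, log2 fold change 1.59 ± 0.28, adjusted p = 0.0169) and Ifi35 (1.54-fold, log2 fold change 0.62 ± 0.15, adjusted p = 0.0462) completed the 6. Ifi44 missed the threshold (log2 fold change 1.33 ± 0.38, adjusted p = 0.0691), with 256 and 755 CPM in the 2 cKO libraries.

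The 2 treated cKO libraries differed between themselves. In replicate 1, 57.1% of reads were unmapped, against 12.6% to 18.4% in the other day 8 libraries. Replicate 1, the smallest library of the series at 3614967 counts on genes, held less Ifi44, Rtp4 (86.6 and 312 CPM in replicates 1 and 2), Xaf1 (70.8 and 186 CPM) and Ifi27l2a (173 and 358 CPM), and more Bst2 (1149 and 562 CPM) and Cmpk2, than replicate 2. Without replicate 1 the count of higher members was 9, without WT IFNg replicate 3 it was 3, and with only these libraries fitted it was 0. Monocyte marker sums were 29.4 to 40.4 CPM in treated WT and 92.5 to 154.8 CPM in treated cKO, stromal sums 10.5 to 57.8 and 62.8 to 346 CPM, and their part was not tested. The IFNg effect was not called different between genotypes for any member (0% of genes called). DESeq2 called 1, Ifi44, and 4 members had an unadjusted p under 0.05. The difference for Ifi44 was -2.12 ± 0.56 (adjusted p = 0.367), for Rtp4 -1.12 and for Cmpk2 0.94. Without cKO IFNg replicate 2, so that 1 treated cKO library stands for the group and is assumed to vary like the others, 5 members were called.

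**Figure D2:**
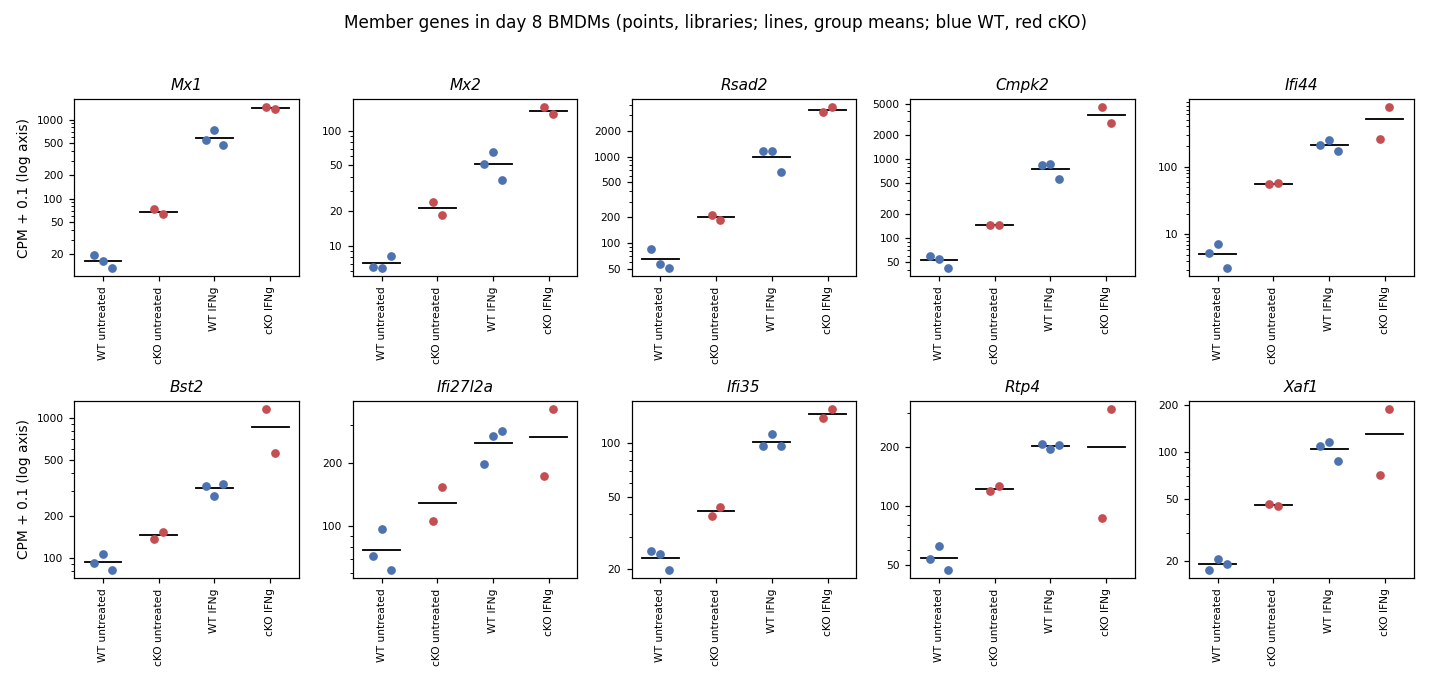
CPM plus 0.1 on a log axis of each member gene in day 8 BMDMs, with a point for each library, a line for each group mean, WT in blue and cKO in red. IFNg libraries lie above the untreated ones of their genotype in every panel except for 1 cKO library of Rtp4, and the 2 treated cKO libraries lie apart for Ifi44, Bst2, Ifi27l2a, Rtp4 and Xaf1.

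In peritoneal macrophages, which developed in the mouse, cKO cells held more of Ifi44, Rsad2, Mx1 and Cmpk2. These were the 4 members called higher in cKO (0.639% of the 12361 genes tested), and 8 lay above every WT library (8.49% of genes). Ifi44 had 0.5503, 0.784 and 0.5499 CPM in WT (5, 11 and 12 counts) and 5.73, 6.03 and 8.82 CPM in cKO (10.6-fold, log2 fold change 3.41 ± 0.34 (SE), adjusted p = 0.00477). Rsad2 had 7.704, 2.28 and 3.895 CPM in WT and 22.9, 19.01 and 29.4 CPM in cKO (5.26-fold, log2 fold change 2.40 ± 0.41 (SE), adjusted p = 0.0318). Both were scarce in WT macrophages of the peritoneum. Mx1 had 9.03, 5.78 and 6.64 CPM in WT and 18.8, 18.4 and 21.4 CPM in cKO (2.73-fold, log2 fold change 1.45 ± 0.23 (SE), adjusted p = 0.0244). Cmpk2 had 27.4, 20.5 and 23.5 CPM in WT and 54.3, 43.3 and 62.6 CPM in cKO (2.24-fold, log2 fold change 1.16 ± 0.21 (SE), adjusted p = 0.042). Mx2 was not called (log2 fold change 1.67 ± 0.40, adjusted p = 0.141), with 4.62, 1.71 and 1.74 CPM in WT and 8.54, 6.73 and 9.21 CPM in cKO. Ifi27l2a and Ifi35 overlapped between genotypes, at 41.5, 32.1 and 22.8 CPM of Ifi35 in WT and 39.8, 30.8 and 39.2 CPM in cKO. Of the other interferon-stimulated genes 7 of 39 tested were higher.

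Only Ifi44 was called in peritoneal cells without WT replicate 2 or 3 or without any one of the cKO libraries. With same-numbered libraries as pairs the calls were Ifi44 and Rsad2, and Mx1 and Cmpk2 each had an adjusted p of 0.0535. Monocyte marker sums were 103 to 214 CPM in WT and 548 to 928.5 CPM in cKO while macrophage sums were 10000 to 12320 and 10390 to 12350 CPM, and the part of the monocyte transcripts was not tested. By the methods these libraries were made with a low-input kit and the BMDM libraries by ribosomal RNA depletion, so levels are not compared between them.

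In the antibody experiment cKO cells again held more of most effectors, with or without an antibody. With no antibody 8 members were higher in cKO (4.01% of the 17191 genes tested), and 8 lay above every WT library (19.2% of genes). Ifi44 had 2.27, 1.01 and 0.414 CPM in WT and 63.6, 34.9 and 17.8 CPM in cKO (31.8-fold, log2 fold change 4.99 ± 0.57 (SE), adjusted p = 6.24e-05). Cmpk2 had 7.88, 2.395 and 1.55 CPM in WT and 73.5, 59.6 and 25.6 CPM in cKO (13.6-fold, log2 fold change 3.77 ± 0.59 (SE), adjusted p = 0.00137). Rtp4 had 10.8, 4.41 and 2.17 CPM in WT and 102, 65.3 and 37.4 CPM in cKO (12-fold, log2 fold change 3.58 ± 0.56 (SE), adjusted p = 0.00137). The cKO libraries spread widely, and replicate 3 was the lowest of the 3 for all 10 members. Rsad2 (5.78-fold), Mx1 (3.81-fold), Mx2 (3.59-fold), Xaf1 (3.47-fold) and Ifi35 (2.04-fold) were also called. Bst2 (log2 fold change 0.55 ± 0.29, adjusted p = 0.222) and Ifi27l2a (log2 fold change 1.55 ± 0.95, adjusted p = 0.286) overlapped with WT. Leaving out WT replicate 2 or 3 or cKO replicate 1 ended the calls of Mx2 and Xaf1, and leaving out cKO replicate 2 that of Mx2.

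With the control antibody 8 members were higher in cKO (3.43% of genes called higher), and all 10 lay above every WT library (18.1% of genes). Ifi44 was counted 3, 1 and 3 times in WT and 739, 128 and 70 times in cKO, which is 20.6, 22.2 and 7.09 CPM in cKO (98.5-fold, log2 fold change 6.62 ± 0.81 (SE), adjusted p = 0.000109). Rtp4 had 1.66, 1.39 and 1.16 CPM in WT and 48.7, 41.7 and 19.8 CPM in cKO (25.9-fold, log2 fold change 4.70 ± 0.66 (SE), adjusted p = 0.000613). Rsad2 had 5.25, 5.84 and 8.58 CPM in WT and 53.4, 82.6 and 56.8 CPM in cKO (9.86-fold, log2 fold change 3.3 ± 0.37 (SE), adjusted p = 0.000103). As with no antibody, Bst2 (log2 fold change 0.77 ± 0.29, adjusted p = 0.177) and Ifi27l2a (log2 fold change 2.21 ± 1.22, adjusted p = 0.428) were not called. Without WT control replicate 2 the count was 4, and without cKO control replicate 1 it was 5. Stromal marker sums were 15.97 to 250.7 CPM in control WT and 207 to 369 CPM in control cKO, monocyte sums 6.84 to 9.54 and 12.2 to 16.2 CPM, and their part was not tested.

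With the IFNAR1 antibody 4 members were still higher in cKO (0.483% of genes called higher), and 8 lay above every WT library (3.76% of genes). The pair Rsad2 and Cmpk2 was among them. Rsad2 had 8.196, 6.87 and 6.69 CPM in WT and 53.5, 60.1 and 78.7 CPM in cKO (8.96-fold, log2 fold change 3.16 ± 0.36 (SE), adjusted p = 0.000188). Cmpk2 had 0.796, 1.35 and 3.28 CPM in WT and 13.97, 33.2 and 42.7 CPM in cKO (16.8-fold, log2 fold change 4.07 ± 0.63 (SE), adjusted p = 0.00378). Mx1 and Rtp4 were the other called members. Mx1 had 4.18, 1.35 and 2.34 CPM in WT and 16.7, 13.2 and 16.1 CPM in cKO (5.78-fold, log2 fold change 2.53 ± 0.40 (SE), adjusted p = 0.00527). Rtp4 was counted 6, 4 and 7 times in WT and 172, 34 and 32 times in cKO (20.9-fold, log2 fold change 4.38 ± 0.85 (SE), adjusted p = 0.0232). Ifi44 was counted 1, 0 and 6 times in WT and 50, 18 and 21 times in cKO and missed the threshold (log2 fold change 4.26 ± 0.98, adjusted p = 0.053). Mx2, Xaf1 and Ifi35 lay above every WT library but were not called (adjusted p = 0.18, 0.128 and 0.352). When only these libraries were fitted, 1 member was called. Rtp4 lost its call without WT IFNAR1 replicate 1 or 2 or cKO IFNAR1 replicate 1 (adjusted p = 0.118, 0.0808 and 0.0642), and Ifi44 was called without WT IFNAR1 replicate 3 (adjusted p = 0.0319). Of the other interferon-stimulated genes 15 of 40 were higher in cKO under this antibody, against 29 under control antibody and 35 under none. Of all genes 0.483%, 3.43% and 4.01% were called higher in these arms. Chi-square per degree of freedom between replicates was 82.5 to 178 in WT and 5.27 to 97.5 in cKO under this antibody. Under control antibody it was 4.39 to 7.43 in WT and 4.83 to 12.6 in cKO. The counts of calls therefore do not compare the size of the genotype effect between arms.

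**Figure D3:**
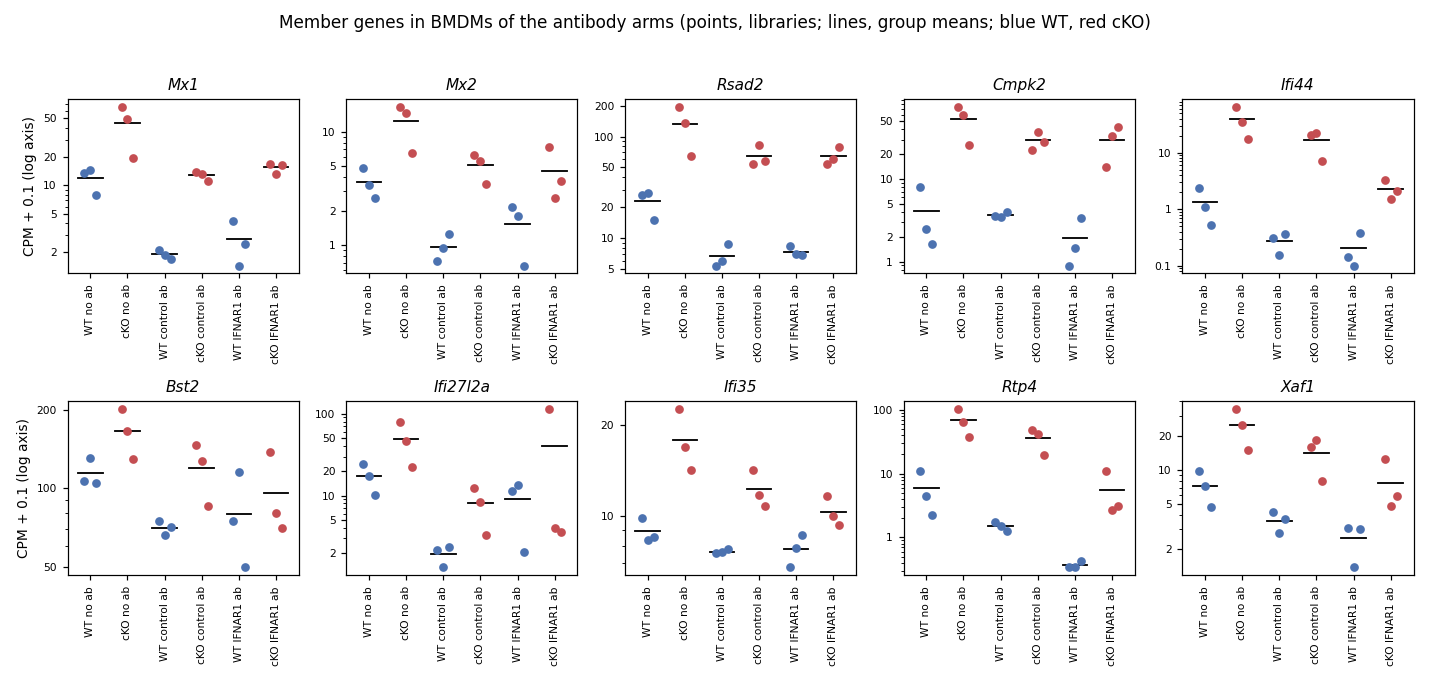
CPM plus 0.1 on a log axis of each member gene in the antibody experiment, with a point for each library, a line for each group mean, WT in blue and cKO in red. Ifi44 and Rtp4 are lower in every cKO library with IFNAR1 antibody than in every cKO library with control antibody, whereas Mx1, Rsad2 and Cmpk2 overlap between these arms.

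Setting IFNAR1 antibody against control antibody within cKO, 2 members fell (2.25% of genes called lower), and they were the 2 below every control library (13.7% of genes). Ifi44 went from 20.6, 22.2 and 7.09 CPM to 3.17, 1.39 and 1.98 CPM (log2 fold change -2.91 ± 0.55, adjusted p = 0.00884). Rtp4 went from 48.7, 41.7 and 19.8 CPM to 10.9, 2.63 and 3.02 CPM (log2 fold change -2.71 ± 0.56, adjusted p = 0.016). The other effectors overlapped between the arms. Rsad2 had a log2 fold change of -0.02 (adjusted p = 0.984), Cmpk2 of 0.04 (adjusted p = 0.979) and Mx1 of 0.26 (adjusted p = 0.727). Ifi27l2a had 113, 3.95 and 3.496 CPM with IFNAR1 antibody, and replicate 1 alone stood apart. Of the 40 other interferon-stimulated genes 12 fell. Stromal marker sums were 207 to 369 CPM in cKO with control antibody and 50.7 to 99.3 CPM with IFNAR1 antibody, and macrophage sums were 3035 to 3684 and 3806 to 4302 CPM, and their part was not tested. Without cKO control replicate 2 or cKO IFNAR1 replicate 2 the count of members was 1. In WT the test called 0 (11.2% of genes called), 1 had an unadjusted p under 0.05 and DESeq2 called 1, and Rtp4 went from 1.66, 1.39 and 1.16 CPM to 0.239, 0.245 and 0.328 CPM (log2 fold change -2.40 ± 1.02, adjusted p = 0.115). The antibody effect was not called different between the genotypes for any member (0% of genes called), 0 had an unadjusted p under 0.05 and DESeq2 called 0, so that the response in one genotype is not shown to differ from that in the other.

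The control antibody itself went with lower effector levels than no antibody. In WT 3 members fell (5.95% of genes called lower), and 9 lay below every library without antibody (23.6% of genes). Mx1 went from 13.3, 14.2 and 7.81 CPM to 2.004, 1.78 and 1.61 CPM (log2 fold change -2.65 ± 0.44, adjusted p = 0.00473). Mx2 and Rsad2 fell as well (log2 fold changes -1.96 and -1.77), although the call of Mx2 was lost without any one of the 6 libraries (adjusted p = 0.0655 to 0.151), and Cmpk2, with 3.46, 3.34 and 3.93 CPM, lay within the range of the libraries without antibody. With same-numbered libraries as pairs 6 members fell, Ifi44, Ifi27l2a and Rtp4 in addition, and without WT control replicate 2 the count was 1. In cKO 1 member fell (0.919% of genes called lower), Mx1, from 65.2, 48.8 and 19.4 CPM to 13.8, 13.04 and 10.9 CPM (log2 fold change -1.77 ± 0.37, adjusted p = 0.0263). That count was 2 without cKO replicate 3 of no antibody and 0 without either of the other libraries of that group or without cKO control replicate 2 or 3.

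In the 3 sets of BMDMs that accompany the double KOs cKO cells also had more of most members. In set 1 the test called 8 higher (17.9% of the 18083 genes tested were called higher), in set 2 8 (10.1%) and in set 3 7 (17.1%), and the members above every WT library of their set numbered 8 (22.3% of genes), 8 (21.8%) and 7 (23.4%). Many genes passed the test in these deeper libraries, so that the member counts are read against those shares. Ifi44 had 8.23, 0.953 and 3.297 CPM in WT and 53.1, 54.4 and 55.2 CPM in cKO of set 1 (13.5-fold, log2 fold change 3.75 ± 0.39 (SE), adjusted p = 1.02e-07). In set 2 it had 7.42, 10.6 and 8.89 CPM in WT and 59.9, 86.5 and 51.7 CPM in cKO (7.23-fold, log2 fold change 2.85 ± 0.35 (SE), adjusted p = 1.24e-06). In set 3 it had 5.11, 1.23 and 3.67 CPM in WT and 48.9, 47.5 and 57.3 CPM in cKO (14.4-fold, log2 fold change 3.85 ± 0.39 (SE), adjusted p = 6.43e-08). Every cKO library lay far above every WT library of its set. Mx1, Cmpk2, Ifi35, Rtp4 and Xaf1 were called higher in all 3 sets, with Mx1 at 2.65-, 3.58- and 2.21-fold and Xaf1 at 2.41-, 1.99- and 2.2-fold.

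Bst2 and Ifi27l2a behaved otherwise in the sets. Bst2 was called higher in sets 1 and 3 (1.57- and 1.51-fold), and in set 2 every cKO library (151, 195 and 142 CPM) lay below every WT library (227, 228 and 212 CPM) without being called (log2 fold change -0.47 ± 0.18, adjusted p = 0.0645). Ifi27l2a was called in none of the sets, with 259.9, 179 and 394 CPM in WT and 270.3, 282 and 252 CPM in cKO of set 1. Rsad2 was called only in set 2 (2.11-fold, log2 fold change 1.08 ± 0.39, adjusted p = 0.0469), and WT replicate 1 of sets 1 and 3 held as much as cKO (102, 27.4 and 38.3 and 86.2, 35.7 and 46.9 CPM in WT). In set 3 Mx1 was not called without WT replicate 2 or cKO replicate 1 (adjusted p = 0.0678 and 0.0535) or when only the groups compared were fitted (0.0661). The Rsad2 call in set 2 was lost without any one of the 6 libraries of that set, and in set 3 Cmpk2 was called only with all 6 libraries or without WT replicate 1. Without WT set 1 replicate 2 the count in set 1 was 5, and without cKO set 2 replicate 2 Bst2 (adjusted p = 0.0315) and Ifi27l2a (0.00879) were called lower in set 2. Deviations of same-numbered WT libraries in sets 1 and 3 correlated across 18083 genes (r = 0.39, 0.32 and 0.14 for replicates 1, 2 and 3), genes are not independent, and the labels do not say whether these sets share mice. Marker sums of other cells went with genotype within the sets. Monocyte sums were 104 to 219 CPM in WT and 241 to 404 CPM in cKO of set 1, 54.1 to 73.2 and 305 to 360.5 CPM in set 2, and 106 to 248 and 286 to 378 CPM in set 3. Neutrophil sums were 59.4 to 113 CPM in WT and 195 to 285 CPM in cKO of set 1 and 66.6 to 117 and 199 to 325 CPM in set 3, while they overlapped in set 2. B cell sums were lower in cKO of sets 1 (108 to 188 CPM in WT, 42.6 to 60.95 CPM in cKO) and 3 and higher in cKO of set 2 (19.9 to 26.7 and 33.6 to 40.6 CPM), and the part of these transcripts was not tested.

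Most effectors were above WT in the double KOs too. Against the mean of the 3 WT sets 9 members were higher in cKO:StingKO (20.5% of genes called higher), 7 higher and 1 lower in cKO:MavsKO (43.2% of genes called) and 9 higher in cKO:Irf7KO (15.1% of genes called higher). The targeted transcripts were lower than in the cKO sets in 2 of these genotypes. Tmem173, which encodes STING, had 4.97 to 6.17 CPM in cKO:StingKO and 68.5 to 90.2 CPM in the cKO sets. Irf7 had 99.6 to 115.8 CPM in cKO:Irf7KO and 249.5 to 475.5 CPM in the cKO sets. That level lay within the range of the WT sets (36.0 to 156.6 CPM), so it is a weak check of the Irf7 label. Mavs, at 37.0 to 38.4 CPM in cKO:MavsKO and 36.2 to 51.9 CPM in the cKO sets, gives no check of the Mavs label. The WT and cKO sets are not tied to a double KO by the labels, so the comparisons use all 3 sets with equal weight. Whether sets 1 and 3 share mice is not given by the labels either. The 9 WT and 9 cKO libraries of the sets may therefore not be independent, and the p-values of these comparisons may be too small.

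STING is an adaptor of DNA sensing. Compared with the cKO sets, 5 members were higher in cKO:StingKO (19.1% of genes called higher) and 5 lay above every cKO library of the sets (11.2% of genes). Bst2 rose most, with 346, 347 and 404 CPM (1.88-fold, log2 fold change 0.91 ± 0.14 (SE), adjusted p = 3.13e-05), where the 9 cKO libraries spanned 141.6 to 269.6 CPM with a median of 200.8 CPM. Xaf1 had 70.3, 80.1 and 81.9 CPM (1.54-fold, log2 fold change 0.63 ± 0.10 (SE), adjusted p = 6.29e-05), and Ifi35 had 54.6, 50.6 and 59.1 CPM (1.46-fold, log2 fold change 0.55 ± 0.10 (SE), adjusted p = 0.000119). Both lay above all cKO libraries of the sets. Cmpk2 (1.52-fold) and Rtp4 (1.24-fold) were called too, and the call of Rtp4 was lost without any one of 7 of the 12 libraries (adjusted p = 0.0542 to 0.15). Ifi44 had 59.4, 91.9 and 83.8 CPM and was not called (log2 fold change 0.48 ± 0.25, adjusted p = 0.143). Without cKO:StingKO replicate 3 the count was 3. With a single cKO set as the reference it was 3 (set 1), 4 (set 2) and 5 (set 3). Of the 40 other interferon-stimulated genes 26 were higher. Stromal marker sums were 184 to 226.5 CPM in cKO:StingKO and 27.7 to 81.8 CPM in the cKO sets, and their part was not tested.

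MAVS is the adaptor of the RNA sensors RIG-I and MDA5. In cKO:MavsKO 1 member was lower than in the cKO sets (3.42% of genes called lower), Ifi27l2a, with 147, 126 and 86.2 CPM (log2 fold change -0.87 ± 0.23, adjusted p = 0.0159). Its level overlapped with the cKO sets, which spanned 100.4 to 295.2 CPM, and the call was lost without cKO:MavsKO replicate 2 or 3 and when set 2 alone was the reference. Against the WT sets Ifi27l2a was below every library (log2 fold change -1.06 ± 0.23, adjusted p = 0.000618). The other 9 members had log2 fold changes of -0.35 (Bst2) to 0.02 (Xaf1) against the cKO sets, and Ifi44 stood at 48.96, 55.02 and 46.3 CPM. Stromal marker sums were 94.2 to 331 CPM in cKO:MavsKO and 27.7 to 81.8 CPM in the cKO sets, neutrophil sums 58.5 to 117 and 153.3 to 325.1 CPM, and their part was not tested.

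IRF7 is a transcription factor of type I interferon genes. In cKO:Irf7KO 2 members were higher than in the cKO sets (4.81% of genes called higher), Rsad2 with 265, 118 and 104 CPM (2.02-fold, log2 fold change 1.01 ± 0.29 (SE), adjusted p = 0.0264) and Cmpk2 with 187, 110.4 and 94.7 CPM (1.69-fold, log2 fold change 0.76 ± 0.18 (SE), adjusted p = 0.00679). Replicate 1 was the highest for both neighbours, and without it 0 members were called. With set 3, the cKO set with the same gene list, as the only reference 0 were called (adjusted p = 0.21 for Rsad2 and 0.0575 for Cmpk2), as with set 1 alone (0.171 and 0.0517). Neither gene lay above all cKO libraries of the sets. Ifi44 had 47.6, 44.9 and 40.9 CPM and was not called (log2 fold change -0.37 ± 0.26, adjusted p = 0.424). Monocyte marker sums were 42.9 to 182.2 CPM in cKO:Irf7KO and 240.6 to 404 CPM in the cKO sets, neutrophil sums were 85.5 to 117 and 153.3 to 325.1 CPM, and their part was not tested.

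**Figure D4:**
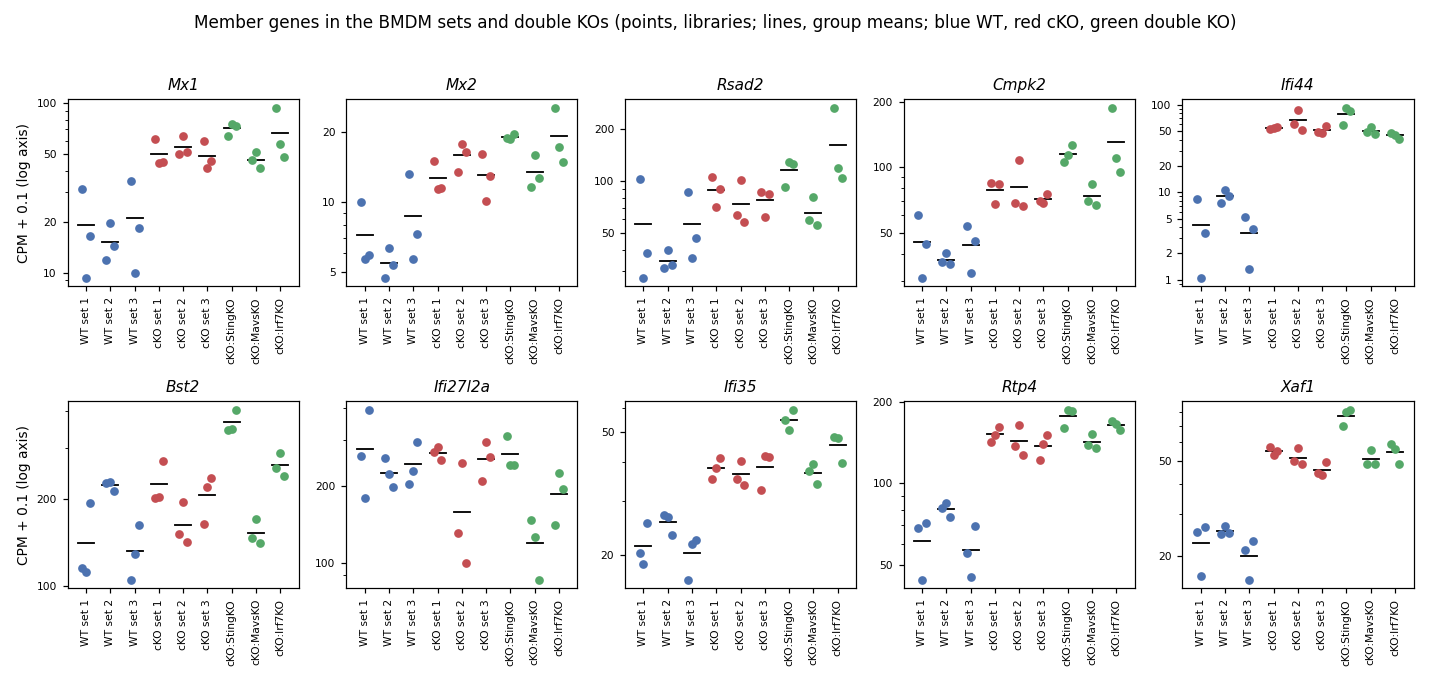
CPM plus 0.1 on a log axis of each member gene in the BMDM sets and double KOs, with a point for each library, a line for each group mean, WT in blue, cKO in red and double KOs in green. Ifi44, Rtp4 and Xaf1 are higher in all cKO and double KO libraries than in all WT libraries, Bst2, Ifi35 and Xaf1 are higher in all cKO:StingKO libraries than in all cKO libraries, and Ifi27l2a shows no rise in cKO.

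Levels can be set side by side between genes only per length, as CPM per kb of exonic sequence. The length joins the exons of all annotated transcripts of a gene. It may exceed the transcript that was expressed and so lower the value, and the ranks depend on it. It also includes the bases that Ifi35 and Rtp4 share with other genes, so the values of these 2 genes may be low. On this scale Bst2 was the most abundant effector of WT cells on day 3, at 71.8 ± 32.8 CPM per kb (SD, n = 3), by a gap larger than the spread. Ifi27l2a (8.92 ± 6.33) and Ifi35 (7.18 ± 1.3) came next and did not differ beyond their spread. Ifi44 was last at 0.0308 ± 0.0136 CPM per kb, and Mx1 (0.306 ± 0.0682) and Mx2 (0.138 ± 0.0454) came just before it. In cKO cells of day 3 Bst2 (333 ± 83.5) and Ifi27l2a (166 ± 52.3) were again first, followed by Rtp4 (59.6 ± 6.34) and Rsad2 (47.8 ± 11.5), whose order is within their spread. The last place had passed to Mx2 (6.64 ± 2.05 CPM per kb). In cKO BMDMs under IFNg Bst2 (948 ± 460 CPM per kb, n = 2), Cmpk2 (874 ± 283) and Rsad2 (805 ± 71.3) did not differ beyond their spread. In peritoneal macrophages of both genotypes Ifi27l2a came first (189 ± 81.4 in WT and 339 ± 97.4 CPM per kb in cKO) and Ifi44 last (0.102 ± 0.022 and 1.12 ± 0.277).

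**Figure D5:**
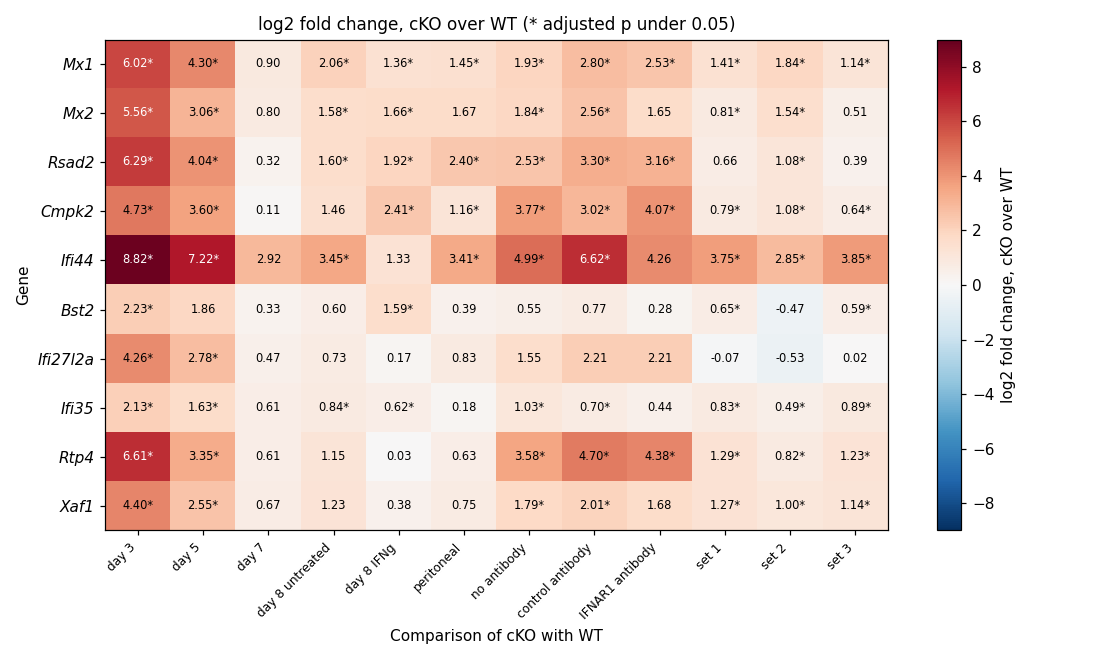
Log2 fold change of cKO over WT for the 10 member genes (vertical axis) in 12 comparisons (horizontal axis), with red for higher in cKO, blue for lower and an asterisk for an adjusted p under 0.05. Ifi44 has the largest value in 10 of the 12 columns, Cmpk2 in that of IFNg and Rtp4 in that of the IFNAR1 antibody, and the day 3 column is the most intense.

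Likeness of pattern was measured as Pearson's r with the median of the members over the means of the 27 groups, in log2 CPM centred within each experiment. Out of 11170 genes the most alike outside the members were Ddx58, which encodes RIG-I (r = 0.983), Ddx60 (0.979), H2-T24 (0.978), Ifit3 (0.977) and Ifit1 (0.977). Among the members Mx2 was the closest to the median (r = 0.975) and Ifi27l2a the furthest from it (0.833). The pair Mx2 and Rsad2 was the most alike (r = 0.981), and Ifi27l2a and Ifi35 the least (0.672). Each member was set against the median of the other members, without itself. Groups of an experiment share a source of cells and a library kit, and no test was made of these correlations.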

How the data were processed

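Sequencing reads were trimmed with Cutadapt and aligned with STAR to mm10 (the GRCm38 assembly) by the authors, and the deposited counts are raw STAR counts per gene, of which the column without regard to strand was used. Separate lines for reads not assigned to a single gene took 18.12% to 78.09% of a library and were left out of library sizes. Genotype, day, treatment and replicate came from the labels, and the members and gene lists were chosen with earlier results of these data known. Genes were filtered in each experiment with filterByExpr (minimum count 10, minimum total 15), scaled by TMM and tested with edgeR's quasi-likelihood test (edgeR 4.0.16, limma 3.58.1, R 4.3.3), with a single fit for the groups of an experiment. P-values are two-sided, Benjamini-Hochberg adjustment covered every tested gene, and calls were made at 0.05. The double KOs were compared with the mean of the 3 sets. The genes named outside the members are the targeted genes, the ligand, receptor and signalling genes of the pathway, and the 5 most alike in pattern, and 1 signalling gene is not reported here. Replicates are biological by the labels, and p-values measure the spread between these cultures or mice.

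Alternatives were DESeq2 (1.42.0), its size factors, other count filters, a replicate block, the larger strand column, a fit of only the groups compared, both placements of the 2 contradictory libraries, single reference sets, each library left out in turn and, chosen after seeing the data, dispersions from estimateDisp. Same-numbered libraries deviated together, every correlation over 0.1, in the genotype comparisons of days 3 and 7 and of peritoneal cells, cKO day 7 against day 3, IFNg in WT and control against no antibody in WT (correlations 0.127 to 0.467), and only there was the block taken as pairing. The precision of a value follows its count, and no 2 replicates were so alike as to be 1 library (lowest chi-square per degree of freedom 3.669). Gene models are those of GENCODE on GRCm38, matched for 55450 of 55517 identifiers.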

Additional observations from a re-analysis of the deposited data

Results flagged for a closer look

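The data outside the comparisons were the 2 cKO libraries of day 8 whose title and library name disagree on whether IFNg was given. In the first, IFNg by title and untreated by library name, 10 of the 10 members lay above every untreated WT library, with 56.5 CPM of Mx1, 44.3 CPM of Ifi44 and 132.2 CPM of Rsad2. In the second, untreated by title and IFNg by library name, 10 of the 10 members did so as well, with 1334 CPM of Mx1, 682 CPM of Ifi44 and 3290 CPM of Rsad2. On the same scaling Mx1 had at most 19.6 CPM in untreated WT, 64.5 to 73.9 CPM in untreated cKO and 1386 to 1445 CPM in treated cKO. The libraries were left unassigned, and no group was given to them from these values.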

How the results depend on the processing

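Of 4848 member results under an alternative, 4517 kept their direction and their side of the threshold or changed sign without a call, 208 lost a call, 122 gained one, and 1 reversed: Rtp4 under IFNg was lower in cKO without cKO IFNg replicate 2 (-1.05, against 0.03 with all libraries). DESeq2 size factors, a minimum mean CPM and estimateDisp dispersions moved no count of called members by more than 1.5 times. DESeq2 called 8 members for the day 7 minus day 3 difference, 1 for the IFNg effect difference, 1 for IFNAR1 antibody in WT and 6 for control antibody in WT. Without a filter on low counts these calls were 6 for the day difference, 1 for the IFNg effect difference and 8 for untreated day 8. The replicate block gave 9 for the day difference, 1 for day 7, 1 for cKO day 7 against day 3, 3 for untreated day 8, 2 for peritoneal cells, 1 for IFNAR1 antibody in WT, and 6 and 2 for control antibody in WT and cKO. Elsewhere the block moved no count by over 1.5 times (6 to 4 for day 8 IFNg and 2 to 3 for cKO:Irf7KO against cKO sets), and it called Bst2 on day 5 (adjusted p = 0.00425) and ended Bst2 and Ifi35 under IFNg. In pairings not met by every correlation the libraries share only a number. With only the groups compared the counts were 7 for the day difference, 1 for cKO over time, 0 for day 5, 9 for untreated day 8, 0 for day 8 IFNg, 1 for genotype under IFNAR1 antibody, 1 for IFNAR1 antibody in cKO, 5 and 2 for control antibody in WT and cKO, 9 for cKO:StingKO and 4 for cKO:Irf7KO against cKO sets. Placing the contradictory libraries by title gave 0 for both day 8 genotype comparisons and for IFNg in cKO. Placing them by library name gave 7 for untreated day 8, 7 for day 8 IFNg and 10 for IFNg in cKO, which moved no count by over 1.5 times. The larger strand column gave 2 for peritoneal cells. With set 1 alone as reference the counts against cKO were 3 (cKO:StingKO), 2 (cKO:MavsKO) and 0 (cKO:Irf7KO), with set 2 alone 0 (cKO:MavsKO), with set 3 alone 0 (cKO:Irf7KO), and with sets of the same gene list 0 for cKO:MavsKO and 0 for cKO:Irf7KO. The cause of these changes was not tested.

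With single libraries left out, called members ranged from 9 to 10 on day 3, 2 to 10 on day 5, 0 to 2 on day 7, 0 to 6 for their difference, 8 to 10 for WT and 0 to 0 for cKO over time, 2 to 3 for untreated and 3 to 9 for treated day 8, 10 to 10 and 8 to 10 for IFNg in WT and cKO, 0 to 5 for their difference, and 1 to 5 in peritoneal cells. Ranges were 6 to 8, 4 to 7 and 3 to 5 for genotype with no, control and IFNAR1 antibody, 1 to 2 and 0 to 0 for IFNAR1 antibody in cKO and WT, 0 to 0 for their difference, and 0 to 2 and 1 to 2 for control antibody in cKO and WT. They were 5 to 9, 7 to 9 and 5 to 7 for sets 1, 2 and 3, 3 to 5, 0 to 1 and 0 to 3 for the Sting, Mavs and Irf7 double KOs against cKO, and 9 to 9, 8 to 9 and 9 to 9 against WT. Rtp4 under IFNg ranged from -1.05 to 0.647. With 2 libraries left in an arm, or 1 for day 8 cKO, the spread is borrowed from the other groups. Depth limits Ifi44, Mx2 and Rtp4 (6 to 37 counts) in WT of day 3. It also limits Ifi44 in the antibody arms and Rtp4 in WT with IFNAR1 antibody (4 to 7 counts). Members of cKO day 8 IFNg replicate 1 ran from 135 counts (Xaf1) to 8526 counts (Cmpk2), so none of them was near the floor of detection.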
